A study of Mus musculus with 16 samples.

Results

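The baseline miRNA repertoire of the lateral ventricle (LV) wall was described in the 8 WT mice of the series. A miRNA was counted as part of it when the scanner software detected it on all 8 WT arrays, which 470 of the 1881 mature mouse miRNAs on the array were (25.0%). Another 88 were detected on 1 to 7 of these arrays and 1323 on none. The LV wall borders the cerebrospinal fluid and carries a layer of multiciliated ependymal cells, and the study ran the arrays to find miRNAs that link Dgcr8 to Drd1, the dopamine D1 receptor. The WT mice were male littermates of the Dgcr8+/- mice, were 8 months old and came from a line back-crossed onto C57BL/6J. The labels name no treatment, each array held the total RNA of 1 mouse, and the 8 Dgcr8+/- arrays of the 16 in the series were not used. The dissected wall is a mixture of cells, so fewer cells of a type and less RNA per cell cannot be told apart.

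MiRNAs are short RNAs that guide Argonaute proteins to messenger RNAs and lower their translation or stability. Drosha and its partner Dgcr8 cut a hairpin from the primary transcript, and Dicer then cuts the hairpin into a duplex whose arms are called 5p and 3p. Usually one arm is loaded into Argonaute and the other is degraded. Target choice rests mainly on the seed, bases 2 to 8 of the mature miRNA, so miRNAs that share a seed form a family. In the adult brain, miR-124 is the classic neuronal miRNA, miR-9 marks neural progenitors and astrocytes, miR-219a and miR-338 drive oligodendrocyte differentiation, and the miR-34b, miR-34c and miR-449 miRNAs act in multiciliated cells.

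The sequences below are those on which the signal order turns, from RefSeq (GRCm38.p6), written 5′ to 3′. RefSeq held 406 of the 470 miRNAs by name, and these carried 95.6% of the summed signal. MiR-124-3p, the seventh brightest, is given by name only. Capitals mark the seed. The first set holds the 4 brightest miRNAs, each the sole detected member of its seed family.
miR-6366: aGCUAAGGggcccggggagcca
miR-3963: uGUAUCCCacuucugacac
miR-5100: uCGAAUCCcagcggugccucu
miR-3968: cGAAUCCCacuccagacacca
The next set holds the miR-29 family and the brightest let-7 miRNAs, the largest families with several members. Each set shares its seed and differs outside it.
miR-29a-3p: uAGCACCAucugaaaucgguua
miR-29b-3p: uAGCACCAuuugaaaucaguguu
miR-29c-3p: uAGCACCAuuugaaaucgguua
let-7a-5p: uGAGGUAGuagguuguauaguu
let-7f-5p: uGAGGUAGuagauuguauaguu
let-7c-5p: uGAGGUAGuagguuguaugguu
let-7b-5p: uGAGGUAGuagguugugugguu
let-7g-5p: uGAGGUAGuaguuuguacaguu
The last set holds miRNAs of the neural and ciliated cell lists described further on.
miR-128-3p: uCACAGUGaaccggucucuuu
miR-9-5p: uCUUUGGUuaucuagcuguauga
miR-9-3p: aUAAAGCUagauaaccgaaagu
miR-219a-5p: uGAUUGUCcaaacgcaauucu
miR-338-3p: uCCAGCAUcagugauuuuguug
miR-34b-5p: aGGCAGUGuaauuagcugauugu
miR-449a-5p: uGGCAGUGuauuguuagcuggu

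Each array detected 495 to 540 miRNAs, the spots for miRNAs summed to between 21545358 and 29763412 signal units, no spot was saturated, and the levels of array pairs correlated across miRNAs with r from 0.994 to 0.998, genes not being independent replicates. Replicate 4 differed in its negative control spots, with a mean signal of 742 against 2.00 to 6.71 on the other arrays. This came from 2 of its 1000 negative control spots, and its median of 2.48 lay within the 1.75 to 3.51 of the others. The number of arrays limits the precision. Slide 1 held 6 of the WT arrays and slide 2 held replicates 2 and 7. A limma fit found 4 of the 470 miRNAs changed between slides (0.851%, adjusted p below 0.05), and all 4 were lower on slide 2. They were miR-344i (log2 difference −0.52, adjusted p = 0.00693 from limma), miR-551b-5p (−0.59), miR-6351 (−0.59) and miR-7671-3p (−0.44). Without replicate 2 the count was 0, with 18 at an unadjusted p below 0.05 against 39 with all arrays.

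Signal was concentrated in a few miRNAs. A share is the signal of a miRNA as a percentage of the summed signal of the 470 miRNAs in the same mouse, before normalization between arrays. The order of different miRNAs on this array is an order of signal, which also holds probe affinity and labelling efficiency and is not a count of molecules. Near-identical family members may also share hybridisation. MiR-6366 had the largest share in every mouse, with a lowest value of 28.6%, a median of 31.6% and a highest of 33.3% (mean 31.4% ± 1.64, SD, n = 8). MiR-3963 followed with 17.1%, 18.6% and 19.4% (mean 18.3% ± 0.802, SD, n = 8). The ranges of these miRNAs did not overlap, and together they held 49.7% ± 2.32 (SD, n = 8) of the signal. Only 3 miRNAs were needed to reach 50% of the mean signal, 14 to reach 75%, 47 to reach 90% and 222 to reach 99%. The 20 brightest held 80.4% ± 0.996 (SD, n = 8, range 79.2% to 81.9%), whereas the 220 miRNAs with a mean log2 signal under 6 held 0.738%.

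**Figure D1:**
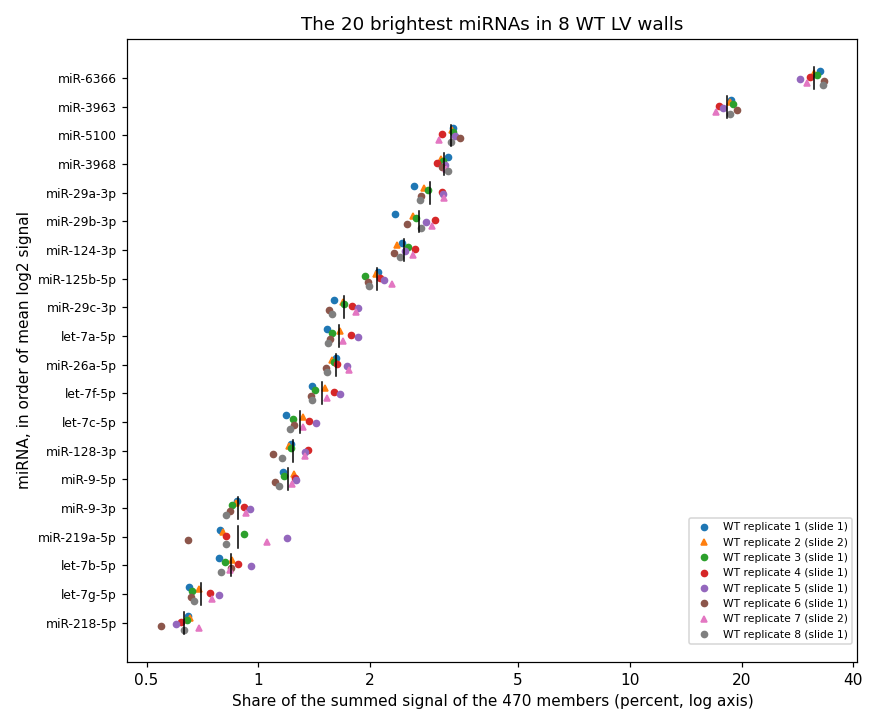
Share of the summed signal of the 470 detected miRNAs (percent, log axis) for the 20 brightest miRNAs, in order of mean log2 signal. Each point is 1 WT mouse (circles slide 1, triangles slide 2) and the black bar is the mean. MiR-6366 and miR-3963 sit apart, at means of 31.4% and 18.3%, and miR-219a-5p shows the widest spread of the 20 on this axis.

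Behind the leading pair, miR-5100 held 3.29% ± 0.136 and miR-3968 3.16% ± 0.0752 (SD, n = 8). MiR-3963, miR-5100 and miR-3968 have the run AUCCCA in common, noticed after their rank was seen and shown here in capitals.
miR-3963: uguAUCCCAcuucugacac
miR-5100: ucgaAUCCCAgcggugccucu
miR-3968: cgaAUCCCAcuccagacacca
miR-191-5p: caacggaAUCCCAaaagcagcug
Of the 1608 array miRNAs with a RefSeq sequence, 7 hold this run on the RNA strand (0.435%). Of these 7, 4 were among the detected miRNAs, against 406 of all 1608. The run was taken from miR-3963, miR-5100 and miR-3968, so their place among the 4 was fixed in advance. The other one, miR-191-5p, was dim, with a mean log2 signal of 2.93 against 14.65 for miR-3968. MiR-3963 and miR-3968 also match at most bases after the run, and shared hybridisation between their probes was not tested. MiR-6366 lacks the run, and its bases were 72.7% G or C against a median of 50% in the 406 miRNAs with a sequence.

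Below these 4, the brightest miRNAs are miRNAs well described in brain. Levels are the log2 of the quantile-normalized signal. MiR-29a-3p, which represses collagen and other matrix genes, had a lowest level of 14.46, a median of 14.54 and a highest of 14.57. MiR-124-3p, which represses non-neuronal transcripts in neurons, had 14.26, 14.30 and 14.43. After normalization, 7 mice lay within 14.54 to 14.57 for miR-29a-3p and replicate 1 lay below them, while replicate 1 was the highest mouse for miR-124-3p. Quantile normalization holds values at these ranks close together: the SD was 0.03 for miR-29a-3p and 0.05 for miR-124-3p, against 0.23 and 0.19 without it. The remaining top 20 were, in order, miR-125b-5p (mean 14.06), miR-29c-3p, let-7a-5p, miR-26a-5p, let-7f-5p, let-7c-5p, miR-128-3p, miR-9-5p, miR-9-3p, miR-219a-5p, let-7b-5p, let-7g-5p and miR-218-5p (mean 12.34), with miR-29b-3p (mean 14.43) between miR-29a-3p and miR-124-3p. MiR-128-3p and miR-218-5p are neuronal miRNAs that act on excitability and motor neuron identity, respectively.

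Some neighbours in this order did not differ beyond their spread between mice. The pairs were ordered by the means that were then compared, and normalization fixes the difference of the first pair at an SD of 0, so the counts describe these arrays and are no evidence for the order. Of the 19 pairs of neighbours, 16 were past an adjusted p of 0.05 (2-sided exact sign-flip permutation test, smallest p possible with 8 mice 0.0078125), and 11 were without normalization between arrays. Let-7a-5p exceeded miR-26a-5p in 6 of 8 mice, by 0.02 on the log2 scale (adjusted exact p = 0.0611). MiR-9-3p exceeded miR-219a-5p in 5 of 8 mice (adjusted exact p = 0.651), and miR-219a-5p exceeded let-7b-5p in 4 of 8 (adjusted exact p = 0.789). When the authors' total gene signal took the place of the mean over probes, 9 pairs passed.

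Grouped by seed, the 406 miRNAs with a sequence fell into 344 families, of which 35 had more than 1 detected member and held 24.6% of the signal. The let-7 family, which restrains proliferation and rises as neural tissue matures, had 10 detected members of 11 with its seed on the array. Its share had a lowest value of 6.98%, a median of 7.37% and a highest of 8.41% (mean 7.52% ± 0.515, SD, n = 8), and its brightest member, let-7a-5p, held 21.9% of it. The let-7 signal was thus spread over its members, and let-7f-5p, let-7c-5p, let-7b-5p and let-7g-5p were all among the top 20. The miR-29 family reached nearly the same share with 3 members, 7.29% ± 0.523 (SD, n = 8, range 6.56% to 7.92%, median 7.15%), of which miR-29a-3p held 39.7%. The ranges of these families overlapped.

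Other families were led by a single member. The miR-125 family held 2.25% ± 0.124 (SD, n = 8), 92.6% of it miR-125b-5p. The miR-26 family held 1.81% ± 0.103 (SD, n = 8), 89.3% of it miR-26a-5p. MiR-128-3p and miR-9-5p, each the sole member of its seed, held 1.24% ± 0.0934 and 1.20% ± 0.0590 (SD, n = 8). The 10 largest families among the 406 miRNAs with a sequence together held 77.5% of the signal. MiR-124-3p, which had no sequence by name, was placed in no family, and its own share was 2.47%. Because each share depends on miR-6366 and miR-3963, the let-7 share was 14.9% and the miR-29 share 14.5% when the leading pair was left out of the sum, an alternative chosen after the data were seen.

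**Figure D2:**
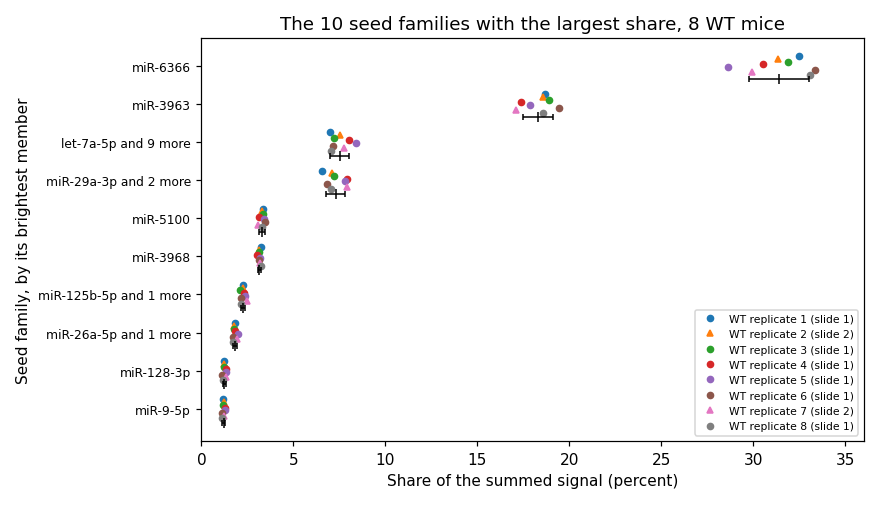
Share of the summed signal (percent) of the 10 seed families with the largest share, each labelled by its brightest member and the number of others. Points are WT mice (circles slide 1, triangles slide 2), and the black mark below them is the mean with the SD. The let-7 and miR-29 families lie at 7.52% and 7.29%, with overlapping mice.

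First base and base composition differed along the signal order. Of the 90 of the brightest 100 miRNAs that had a sequence, 51 began with U (56.7%), against 162 of all 406 (39.9%) and 460 of 1134 array miRNAs detected on no WT array (40.6%). U as the first base is favoured by Argonaute proteins. The median share of G and C bases was 45.5% in the brightest 100, 50% in the 406 and 52.4% in the undetected miRNAs. Both are descriptions, with no test.

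By name and position, miRNAs numbered 5000 or lower were detected more often than later ones, 391 of 1099 (35.6%) against 79 of 782 (10.1%). The later miRNAs nevertheless held 35.5% ± 1.71 (SD, n = 8) of the signal, and 4.10% ± 0.153 (SD, n = 8) without miR-6366. The imprinted cluster between Dlk1 and Dio3 on chromosome 12 is expressed from the maternal chromosome and active in the brain. It had 55 of its 111 array miRNAs detected (49.5%, against 25.0% over the whole array) and held 3.30% ± 0.187 (SD, n = 8). MiR-127-3p was its brightest, with a mean log2 level of 11.71 and rank 30, followed by miR-376a-3p (11.33), miR-434-3p (11.32), miR-300-3p (11.16) and miR-136-5p (11.14). The miR-297, miR-466, miR-467 and miR-669 names come largely from an intron of Sfmbt2. They had 14 of 61 detected (23.0%, near the 25.0% over the whole array) and held 0.0977%.

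Arms were paired where their names differed only in 5p and 3p. Hairpins with a locus number in 1 arm name, such as let-7a-5p with let-7a-1-3p, were left out of the counts of hairpins. Both arms were measured for 723 hairpins paired in this way. Both were detected on all 8 arrays in 72, 5p was detected on all 8 and 3p on none in 101, and the reverse held in 88. Another 14 had 5p and 10 had 3p on all 8 with the other arm on some arrays, and 438 had neither on all 8. A difference between arms also holds the affinity of their probes. Within the 72 hairpins, 5p was higher in 38 (52.8%) and 3p in 31 (43.1%) by a limma fit of the difference per mouse (adjusted p below 0.05). The same arm was the brighter in 8 of 8 mice for 68 hairpins. The median difference was 7.07-fold, 30 hairpins differed by more than 10-fold and 10 by more than 100-fold.

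Among these 72 hairpins the largest 3p excess was in miR-29a, whose 5p arm had levels of 5.02 (lowest), 5.16 (median) and 5.23 (highest), all far below the 3p levels given above. Its log2 difference, 5p minus 3p, was −9.38 (standard error 0.03, adjusted p = 5.19e-20 from limma), or 668-fold. It was followed by miR-124 (−8.30), miR-101a (−8.14), miR-338 (−7.45) and miR-127 (−6.66). Among the hairpins left out by name, miR-29b had a wider gap than miR-29a. MiR-29b-3p had means of 14.43 on slide 1 and 14.44 on slide 2, against 4.13 and 4.09 for miR-29b-1-5p. The miR-29b-3p signal can come from more than 1 locus. The largest 5p excess among the 72 was in let-7i, with 5p levels of 12.15, 12.21 and 12.26 and 3p levels of 3.40, 3.57 and 3.87 (lowest, median and highest). Its log2 difference was 8.61 (standard error 0.05, adjusted p = 6.25e-18 from limma). Let-7d (8.28), let-7e (7.58), miR-99a (7.16) and miR-106b (6.76) followed, so let-7 hairpins took the first 3 places on the 5p side of the 72. Of those left out by name, let-7a had a wider gap than let-7i. Let-7a-5p had means of 13.72 on slide 1 and 13.71 on slide 2, against 4.48 and 4.44 for let-7a-1-3p.

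MiR-9 was the only hairpin with both arms in the top 20, with a mean log2 level of 13.26 for 5p and 12.82 for 3p, and 5p was 1.35-fold higher in 8 of 8 mice (log2 difference 0.44, standard error 0.02, adjusted p = 1.49e-09 from limma). Both miR-9 arms are known to be functional, and both act on the REST pathway. The hairpins nearest to equal arms were miR-505 (log2 difference 0.03, adjusted p = 0.532), miR-409 (−0.04, adjusted p = 0.113) and miR-1839 (0.08, adjusted p = 0.279), none past the threshold of the limma fit, then miR-582 (−0.23, adjusted p = 0.00125) and miR-652 (0.33, adjusted p = 5.72e-05), both past it. Where one arm was not detected in any mouse, the bright arm was set against a reference level. The reference was the lowest signal among detected miRNAs of each array, or the dim arm's own signal if higher. That lowest signal lay between a log2 of 0 and 2.00 over the arrays. It is not the detection limit of the dim probe, so the folds are no strict lower bounds and cannot be ranked against the 72. Against this reference let-7g-5p was 2444-fold higher for let-7g-3p and miR-132-3p 1653-fold higher for miR-132-5p. MiR-107-3p was 1505-fold higher for miR-107-5p, and these pairs were named after their values were seen.

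**Figure D3:**
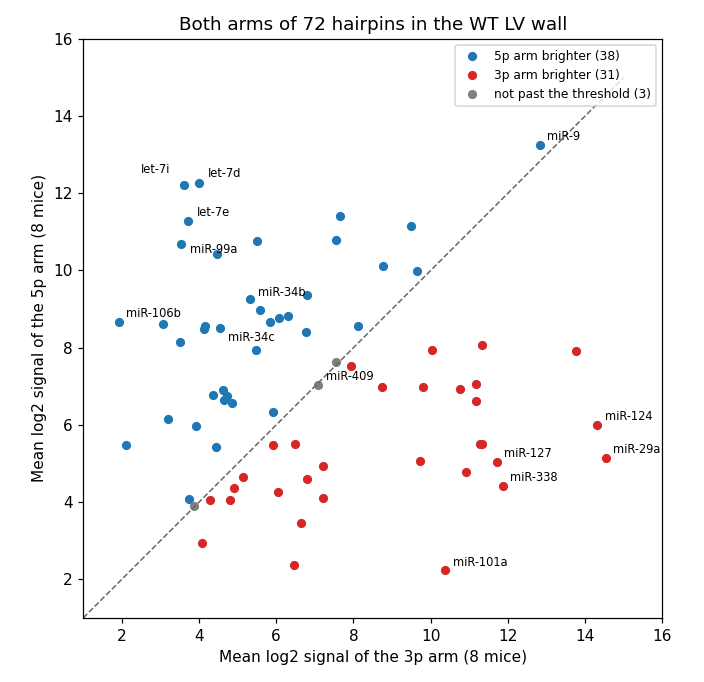
Mean log2 signal of the 5p arm against the 3p arm for the 72 name-paired hairpins with both arms detected on all 8 WT arrays. Each point is 1 hairpin and the dashed line marks equal signal. Blue hairpins (38) had a brighter 5p arm, red hairpins (31) a brighter 3p arm, and 3 grey ones passed neither way. MiR-9 lies close to the line at the bright end.

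The 3 miRNAs that the study named as candidates to target Drd1 were of middle signal in WT mice. Its later experiments kept miR-382-3p and miR-674-3p, whose overexpression it reports to have lowered Drd1 transcripts in vitro, and not miR-153-5p. MiR-674-3p had a lowest level of 7.08, a median of 7.22 and a highest of 7.39, and ranked 166 of 470. MiR-382-3p had 6.64, 6.78 and 7.04 and ranked 192, and miR-153-5p had 5.37, 5.51 and 5.64 and ranked 280. The ranges of the 3 miRNAs did not overlap. Their mature sequences share no seed.
miR-674-3p: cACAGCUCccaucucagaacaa
miR-382-3p: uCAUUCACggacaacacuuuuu
miR-153-5p: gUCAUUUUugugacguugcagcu
MiR-674-3p was the brighter arm of its hairpin (log2 difference, 5p minus 3p, −2.28, adjusted p = 1.20e-15 from limma). MiR-382-3p was the dimmer arm (2.57), its partner miR-382-5p ranking 85, and miR-153-5p was far dimmer than miR-153-3p (−5.79), which ranked 37.

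Spread between mice was small. The SD of the log2 level had a median of 0.12 over the 470 miRNAs, with quartiles of 0.08 and 0.17, and a median of 0.11 within slides. The standard error from the spots of one array, which leaves out labelling, hybridisation and array variation, had a median of 0.02. Before normalization between arrays the median SD was 0.22, and with a normexp correction of the median spot signal it was 0.0550. The dimmest 157 miRNAs had a median SD of 0.15, the middle 156 of 0.12 and the brightest 157 of 0.08. This order was not seen without normalization, where the medians were 0.23, 0.22 and 0.22. Quantile normalization gives the top ranks the same value on every array, which fixes miR-6366 and miR-3963 at an SD of 0. Without it, miR-6366 (0.08), miR-3963 (0.09) and miR-5100 (0.11) had the 3 lowest SDs of all 470. Let-7a-5p, miR-29c-3p and let-7f-5p had the lowest normalized SDs after the leading pair, each 0.01.

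**Figure D4:**
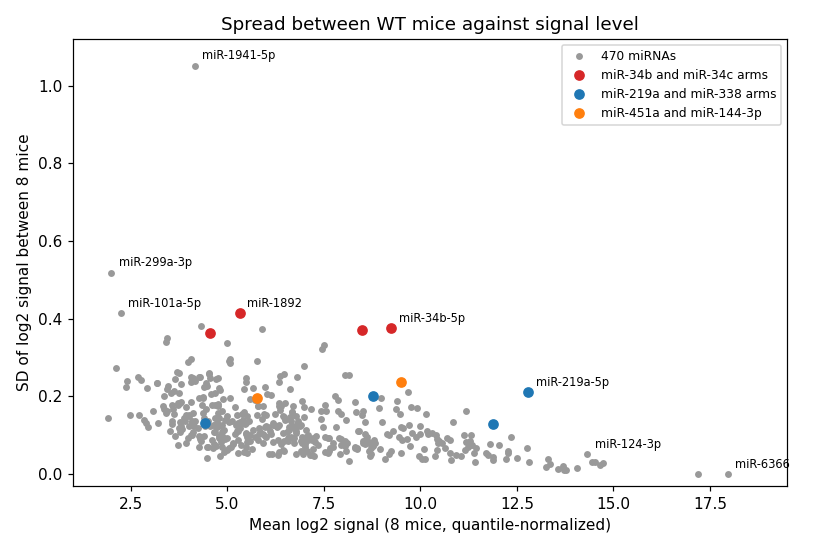
SD of the log2 signal between the 8 WT mice against the mean log2 signal (quantile-normalized). Each point is 1 of the 470 miRNAs, with arms of miR-34b and miR-34c (red), miR-219a and miR-338 (blue) and miR-451a and miR-144-3p (orange) in colour. MiR-1941-5p reaches 1.05, and the red points lie between 0.36 and 0.41 at levels from 4.55 to 9.25.

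The most variable miRNA was miR-1941-5p, with a lowest level of 2.67 in replicate 1, a median of 4.07 and a highest of 5.67 in replicate 6 (SD 1.05). This was an 8.01-fold range, with the other mice spread between these ends. Its pair of probes varied together with r = 0.791 over the 8 mice, a description. MiR-299a-3p (SD 0.52) and miR-101a-5p (SD 0.41) came among the dimmest miRNAs, at mean levels of 1.99 and 2.23. MiR-5119 (SD 0.38), at a mean level of 4.33, was also among the dimmest 157. MiR-1892 (SD 0.41) and miR-3082-5p (0.37) were of middle signal. The remaining 4 of the 10 most variable were the 4 arms of miR-34b and miR-34c.

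MiR-34b-5p had levels of 8.50 (lowest), 9.28 (median) and 9.75 (highest), and miR-34c-5p of 7.74, 8.54 and 8.998. MiR-34b-3p had 4.50, 5.37 and 5.91, and miR-34c-3p had 3.84, 4.55 and 5.09. In all 4, replicate 4 was the lowest mouse and replicate 1 the highest, both on slide 1, and the range was 2.39-fold to 2.65-fold. The arms moved together: the SD of the 5p to 3p difference was 0.05 for miR-34b and 0.08 for miR-34c, against SDs of 0.36 to 0.41 for the arms. Without replicate 4, the array with the bright negative control spots, the SDs of the arms were 0.23 to 0.26, and the part of that array in the spread was not tested. The miRNAs are transcribed from one locus, so the arms are not independent. MiR-449a-5p, which shares the seed of miR-34b-5p but comes from another locus, was dimmer, with 4.50, 4.70 and 4.91 and an SD of 0.13. Its correlation with miR-34c-5p was r = 0.039 (exact permutation p = 0.930, n = 8) and rho = −0.02 (exact permutation p = 0.977), r was −0.30 without the mice farthest from the median of miR-34c-5p and 0.387 in the 6 mice of slide 1.

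The LV wall label was set against miRNA lists for cell types. Over the whole array 25.0% of miRNAs were detected in all mice, and lists for organs that should be absent were detected in part. The counts below therefore do not by themselves show which cells were present. Of 8 miRNAs listed for multiciliated cells, 5 were detected in all mice and held a summed share of 0.0784% to 0.183% (median 0.130%), with the share lowest where miR-34b and miR-34c were lowest. MiR-449a-3p, miR-449b and miR-449c-5p were at the floor in every mouse. All 11 listed neuronal miRNAs were detected, with a share of 5.58% to 6.54% (median 6.03%), and both miR-9 arms held 1.95% to 2.21% (median 2.08%). The oligodendrocyte list was complete as well, with 4 of 4 detected and a share of 1.05% to 1.85% (median 1.32%).

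Lists for cells of other compartments held less signal than the neuronal, miR-9 and oligodendrocyte lists. The endothelial and mural list had 4 of 5 detected (0.219% to 0.273%, median 0.248%), above the ciliated cell list in every mouse and led by miR-126a-3p, an endothelial miRNA that supports vessel integrity, at a mean level of 10.77 ± 0.05 (SD, n = 8). The red blood cell list had 3 of 4 (0.0720% to 0.131%, median 0.0970%), led by miR-451a at 9.49 ± 0.24 (SD, n = 8). The microglia and immune list had 5 of 6 (0.0501% to 0.0615%, median 0.0555%), led by miR-150-5p. For choroid plexus and other secretory epithelium, 3 of 12 were detected (0.0808% to 0.115%, median 0.0993%). These were miR-204-5p, miR-211-5p and miR-211-3p, while 8, among them miR-200c-3p, miR-141-3p, miR-183-5p and miR-182-5p at the floor, were detected in no mouse. Of the lists for organs that should be absent, heart and muscle had 3 of 6 (0.0138% to 0.0186%, median 0.0163%) and liver and kidney 2 of 3 (0.0162% to 0.0205%, median 0.0181%). The muscle miRNAs miR-1a-3p (mean level 6.48), miR-133a-3p (4.76) and miR-206-3p (3.98) were detected in all mice, as were miR-192-5p (5.91) and miR-194-5p (6.46). MiR-208a-3p, miR-208b-3p, miR-499-5p and miR-122-5p were detected in no mouse.

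**Figure D5:**
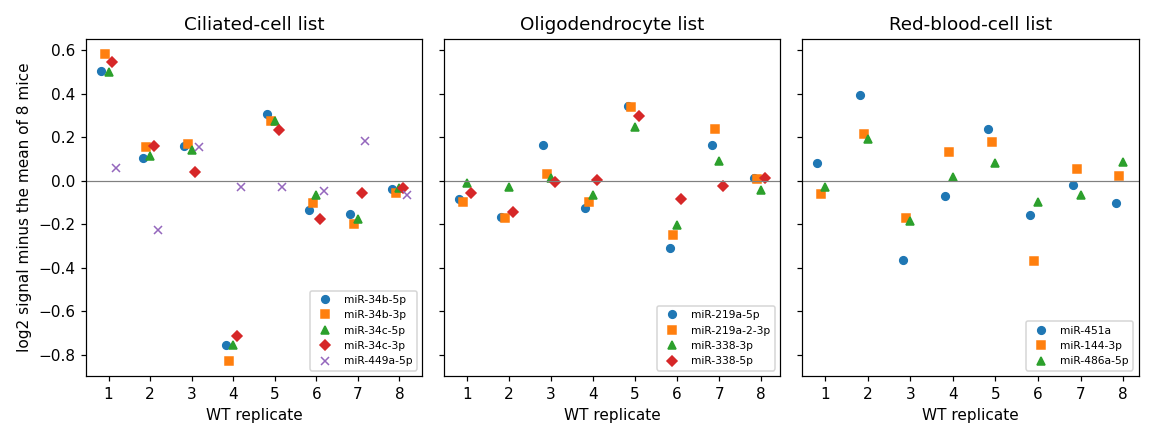
Log2 signal of each miRNA minus its mean over the 8 WT mice, by replicate, for detected miRNAs of the ciliated cell, oligodendrocyte and red blood cell lists. Replicates 2 and 7 were on slide 2. The 4 arms of miR-34b and miR-34c move together, highest in replicate 1 and lowest in replicate 4, while miR-449a-5p does not follow them, and the oligodendrocyte list is highest in replicate 5.

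Within the lists, 10 pairs were compared across mice. MiR-219a-2-3p had levels of 8.53, 8.73 and 9.12 and miR-338-3p of 11.66, 11.85 and 12.11 (lowest, median and highest), each lowest in replicate 6 and highest in replicate 5. They correlated with r = 0.923 (exact permutation p = 0.000794, adjusted p = 0.00794 over the 10 pairs, n = 8) and rho = 0.850 (exact permutation p = 0.0112, adjusted p = 0.0919). Without replicates 5 and 7, r was 0.748, and in the 6 mice of slide 1 it was 0.971 (adjusted exact permutation p = 0.0833). They come from different loci and are both oligodendrocyte miRNAs. MiR-219a-5p was also lowest in replicate 6 (12.48) and highest in replicate 5 (13.13).

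No other pair passed the adjusted threshold for r, and none did for rho. For miR-143-3p and miR-145a-5p, smooth muscle miRNAs made from one transcript, r was 0.822 (adjusted exact permutation p = 0.0577, n = 8) and rho 0.762 (adjusted p = 0.0919), with r at 0.556 without replicates 3 and 8 and 0.850 on slide 1. For miR-204-5p and miR-211-5p, which share a seed, r was 0.748 (adjusted exact permutation p = 0.103, n = 8) and rho 0.786 (adjusted p = 0.0919), with r at 0.943 without replicates 3 and 4 and 0.745 on slide 1. For miR-451a and miR-144-3p, erythroid miRNAs of one locus, r was 0.706 (adjusted exact permutation p = 0.127, n = 8) and rho 0.810 (adjusted p = 0.0919), with r at 0.578 without replicates 2 and 3 and 0.613 on slide 1. MiR-451a and miR-124-3p gave r = −0.15 (adjusted exact permutation p = 0.847, n = 8) and rho = −0.58 (adjusted p = 0.284), with r at 0.00430 without replicates 2 and 3 and −0.01 on slide 1. Without normalization between arrays, where a brighter array raises most miRNAs at once, 7 of the 10 pairs passed.

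The edge of the repertoire lay at low signal. The dimmest miRNAs inside it were miR-106b-3p (mean level 1.91), miR-299a-3p (1.99), miR-485-3p (2.11) and miR-101a-5p (2.23). Just outside, 16 miRNAs were detected on 7 of 8 arrays, of which miR-6370 (3.93), miR-129b-5p (3.92), miR-7222-3p (3.79), miR-18a-5p (3.68) and miR-7047-3p (3.63) had the highest levels. These were brighter than the dimmest members, so the boundary follows the software's detection call, which weighs the error of the spots, and not a fixed signal. At a looser limit of 4 arrays, 515 miRNAs would be included.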

How the data were processed

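MiRNAs were measured with 1-colour Agilent mouse miRNA arrays designed on miRBase 21 on 100 ng of Cy3-labelled total RNA per mouse. The authors deposited scanner output with a background-corrected spot signal (intensity, not normalized between arrays) and a value table that equals the total gene signal (largest difference 0). The file headers name Feature Extraction 10.7.3.1, whereas the labels name 10.5.1.1. The methods state quantile normalization.

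From the intensity, outlier-marked spots were left out, spots were averaged by probe, probes were quantile-normalized over the 8 WT arrays, probes were averaged by miRNA, a floor of 1 was set and log2 taken. Seeds were bases 2 to 8. Slides and arms were tested with limma 3.58.1 (R 4.3.3) with Benjamini-Hochberg adjustment at 0.05, and neighbours and pairs with exact permutation tests (scipy 1.17.1). The fit was tested on simulated data with 200 changed features. As the files used hold no mean signal, the normexp alternative (offset 50) used the median spot signal. Named miRNAs were the 20 brightest, the 10 most and 5 least variable, the 10 largest families, the 5 hairpins with the largest 5p excess, the largest 3p excess and the most equal arms, the cell type lists, the study's 3 candidates and the 5 brightest detected on 7 arrays. The members and lists were chosen with earlier results of these data known. The labels number the WT mice as biological replicates. Alternatives left out 1 mouse at a time, kept marked spots, used the total gene signal, the median over probes, normexp, the 75th percentile or no normalization, or lowered the detection limit to 4 arrays.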

Additional observations from a re-analysis of the deposited data

Results flagged for a closer look

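In 10 of the 71 named miRNAs, 1 mouse lay far from the others by Dixon's criterion for 8 samples, and in 29 (6.17%) of all 470. Chance alone marks about 1 group in 20, but that rate does not apply to the named miRNAs, many of which were chosen for their signal or spread. Replicate 1 stood apart in 4 of them, high for miR-124-3p (14.43) and miR-26a-5p (13.74) and low for miR-29a-3p (14.46) and miR-29b-3p (14.36). Replicate 5 was low for miR-9-5p (13.21) and high for miR-338-5p (4.72), and replicate 6 was high for let-7g-5p (12.59) and low for miR-128-3p (13.23). Let-7f-5p was low in replicate 7 (13.54), and the dim miR-299a-3p was low in replicate 8 (0.889). The 8 bright miRNAs among these have an SD of at most 0.05, so the distances are small. Quantile normalization leaves few distinct values at these ranks, where a distant value can be a swap of rank between miRNAs.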

How the results depend on the processing

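No paired analysis was possible because only 1 group was used. The 470 detected miRNAs and the 69 called arm differences stayed within 1.5 times under every alternative run. The share of the top 20 was 77.8% with normexp on the median spot signal. With miR-6366 and miR-3963 left out of the sum, chosen after seeing the data, it was 63.5%, the let-7 and miR-98 share was 14.96% and 12 miRNAs held 50% of the signal. The median SD, 0.121 as reported, was 0.224 with no normalization between arrays, 0.0550 with normexp and 0.0608 with no detection filter. Slide calls, 4 with all arrays, were 2 with marked spots kept, 2 with the median over probes, 2 with normexp, 2 at detection on at least 4 arrays and 0 with no normalization (29 at an unadjusted p below 0.05 in limma). Leaving out 1 mouse gave 0 to 4, with 0 without replicate 2, 1 without replicate 6 or replicate 8 and 2 without replicate 3, replicate 5 or replicate 7. Where replicate 2 or replicate 7 was left out, the lone slide 2 array was assumed to vary like those of slide 1. With the total gene signal, 9 pairs of neighbours passed, and 11 with no normalization. Co-variation calls were 7 with no normalization and 0 in the slide 1 arrays alone, where 6 mice remain. The cause of these shifts was not tested. Signals near the floor have no firm order.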
